A study of Mus musculus with 24 samples.

Results

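m6A peaks called in CD11b+ myeloid cells of irradiated MC38 tumours, and in no library of unirradiated tumours, comprised 639 regions (hereafter IR-only peaks) of 11917 consensus regions found after irradiation. They were chosen by the authors' peak calls in the m6A IP libraries: a region counted when all 3 IP libraries of at least 1 irradiated group had a peak there on the same strand (overlap of at least 1 base), and when none of the 6 IP libraries of unirradiated tumours had a peak overlapping it on that strand. The other 11278 consensus regions (94.6%) overlapped a peak of an unirradiated library and served for comparison. Cells had been sorted from tumours formed by MC38, a mouse colon carcinoma line transplanted into mice of C57BL/6J background. WT mice were Ythdf2 fl/fl without Cre, and cKO mice carried in addition Lyz2-Cre, which expresses the recombinase from the lysozyme locus and is used to delete floxed genes in myeloid cells. Tumours received a single local dose of 20 Gy (IR) or were not irradiated (Ctrl, which the study's methods describe as sham-treated), and cells were collected 3 days after irradiation. Each combination of genotype and treatment had 3 Input and 3 m6A IP libraries, 24 in all, and the cells of each replicate came from pooled mice. The study calls the replicates technical in one place and biological in another, so that p-values and SDs measure the spread between these libraries.

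N6-methyladenosine (m6A) is the most abundant internal modification of mRNA. It is placed by a methyltransferase complex around METTL3 and METTL14 on adenosines in a short sequence context, mostly in long exons and near stop codons, and is read by proteins such as YTHDF2, which brings modified transcripts to the decay machinery. In MeRIP-seq, RNA fragments bound by an antibody against m6A (IP) are sequenced beside the unselected RNA (Input), and a peak is a stretch in which the IP exceeds its control. The height of a peak is given here as the fold enrichment at its summit in the authors' calls, taken as the lowest of the 3 libraries of a group. Since a peak is a ratio, a new call can go with more IP reads, with fewer control reads, or with both, and the deposited calls do not separate these.

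The labels of the irradiated IP libraries did not go with the genotype marker. Lyz2 (ENSMUSG00000069516.8), the gene that holds the Cre insertion, encodes lysozyme and was at 20250 to 21462 CPM (gene counts relative to the scaled library total) in the WT Inputs and at 296 to 414 CPM in the cKO Inputs. In the Ctrl IP libraries it was at 16816 to 17685 CPM in WT and at 93.3 to 98.3 CPM in cKO. After irradiation the IP order was reversed, at 97.3 to 100.1 CPM in those labelled WT and 20975 to 21220 CPM in those labelled cKO. The irradiated IP groups are therefore named by label only, and values averaged over the genotypes do not depend on which label is right. In the Inputs, where Lyz2 went with the genotype labels, Ythdf2 was at 95.6 to 107 CPM in WT and 174 to 231 CPM in cKO. These are counts over the whole gene, and loss of its floxed part was not tested. Inputs held 65.2M to 83.7M (M, mega) gene counts and IP libraries 68.8M to 86.4M. All 11 markers of CD11b+ myeloid cells were present in every Input, including Itgam (CD11b, at least 335 CPM) and Ptprc (CD45, at least 535 CPM). In the Inputs, 30 genes of other cell types summed to 203 to 213 CPM in Ctrl and to 307 to 378 CPM in IR. In the IP libraries they summed to 71.9 to 79.9 CPM in Ctrl and to 91.7 to 107 CPM in IR. Their sums were thus higher after irradiation, and the part of other cell types in the differences between IR and Ctrl was not tested.

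The sequences below are the stretches of the 10 IR-only peaks with the highest fold in exons of protein-coding genes, 1 for each gene, so that the sequence context of the calls can be seen. Each is given 5′ to 3′ as transcribed, read from the GRCm38 (mm10) genome, with GGAC, the core of the m6A consensus, in capitals. Where the exonic part of a peak held GGAC, the stretch was placed around the copy nearest the summit, and otherwise around the summit, shifted where needed to stay within exon and peak. The summit is therefore the first base of the Alox5 stretch and the third of the Nin stretch. In Aatk and Mcf2l the motif lay 272 and 57 bases from the summit, so that these 2 stretches do not contain it. Of the 10 peaks, 6 held GGAC. The same search found it in 63.9% of the 476 IR-only peaks in exons of protein-coding genes and in 65.2% of 8779 other consensus peaks there, with a median of 195.5 and 224 bases searched. The stretches of Ythdf2 (chr4:132212021-132212050, minus strand, 5′ UTR) and Spen (chr4:141488103-141488132, minus strand, exon of a non-coding transcript) are shorter than the coding ones. Those in coding sequence lie in Mcf2l (chr8:12997276-12997336, plus strand), Tns1 (chr1:73917741-73917801, minus), Zranb3 (chr1:128017669-128017729, minus), Lrmp (chr6:145171984-145172044, plus), Alox5 (chr6:116460964-116461024, minus), Aatk (chr11:120012124-120012184, minus), Kcnn3 (chr3:89667321-89667381, plus) and Nin (chr12:70030072-70030132, minus).
Ythdf2: ctccgagtgtcagGGACaaaagccgccgcc
Spen: atgggctctttcaGGACattgacattaaga
Mcf2l: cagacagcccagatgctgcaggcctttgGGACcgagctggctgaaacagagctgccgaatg
Tns1: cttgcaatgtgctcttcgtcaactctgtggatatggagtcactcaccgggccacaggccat
Zranb3: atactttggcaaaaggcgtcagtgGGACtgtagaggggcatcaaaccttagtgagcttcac
Lrmp: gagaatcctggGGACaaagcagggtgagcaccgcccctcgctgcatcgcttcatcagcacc
Alox5: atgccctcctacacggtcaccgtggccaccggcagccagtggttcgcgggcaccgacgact
Aatk: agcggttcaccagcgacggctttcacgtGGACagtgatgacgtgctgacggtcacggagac
Kcnn3: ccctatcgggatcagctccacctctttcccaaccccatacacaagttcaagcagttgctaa
Nin: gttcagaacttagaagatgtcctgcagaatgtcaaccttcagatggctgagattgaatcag

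In windows of 50 bases to each side of the summit, GGAC stood in 236 of the 639 IR-only peaks (36.9%) and in 35.4% of the other consensus peaks. The longer motif GGACT was found in 70 IR-only peaks (10.95%; exact 95% binomial interval 8.64 to 13.6%, which covers counting error only) and in 11.4% of the others, on the transcribed strand alone. DRACH, the wider consensus (A, G or T, then A or G, then A and C, then A, C or T), of which GGACT is one form, was found in 86.2% against 88.4%. Peaks in coding sequence held GGACT in 11.6% of windows, and windows elsewhere in the coding sequence of the same transcripts held it in 10.7%. Peaks in 3′ UTRs held it in 20 of 118 windows (16.9%), and windows elsewhere in those 3′ UTRs in 9.22%. For the other peaks in 3′ UTRs the shares were 14.6% at the summits and 10.5% elsewhere, so that the motif was more frequent at 3′ UTR summits in both sets. In coding sequence the motif was thus about as frequent at the summits as around them, in the IR-only peaks as in the other peaks (10.8% at coding summits against 10.9% elsewhere).

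Summits of IR-only peaks lay in coding sequence in 319 cases (49.9%, against 54.6% of the other peaks), in 3′ UTRs in 118 (18.5%, against 16.4%), in introns in 122 (19.1%, against 16.4%), in other exons in 25, in 5′ UTRs in 23 and outside genes of their strand in 32 (5.01%, against 3.61%). The region around the stop codon, where m6A is known to gather, was less represented: 60 summits (9.39%) lay within 200 bases of a stop codon, against 17.0% of the other peaks. IR-only peaks were shorter (median 242 bases against 319) and lower (median fold 2.47 against 3.04), with a median −log10 q of 14.4 against 22.8. The 498 regions with a peak in exactly 1 Ctrl library, just outside the rule, had a median fold of 2.67 and a median −log10 q of 14.3, and the 7690 with a peak in all 6 had a median fold of 3.24. On the other side, 1284 further regions had no Ctrl peak but a peak in exactly 2 of the 3 libraries of a group. The number of IR-only peaks was sensitive to the rule, at 1202 to 1406 without replicate 1, 2 or 3 of every IP group. In the opposite direction, 883 of 13621 Ctrl consensus regions (6.48%) had no peak in any IR library, beside the 5.36% that were IR-only.

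**Figure D1:**
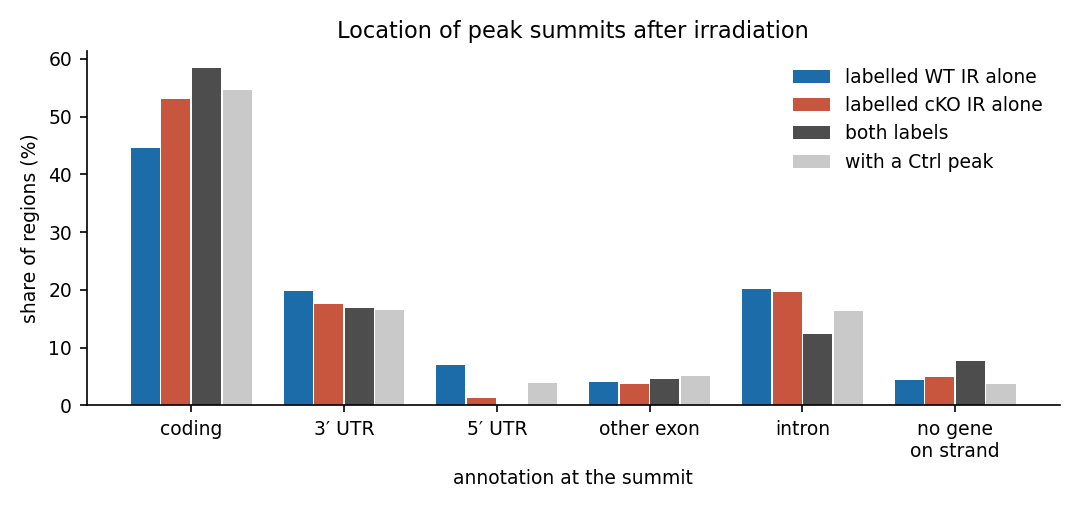
Share of consensus regions (vertical axis, percent) by the annotation at the summit (horizontal axis), for IR-only peaks of the group labelled WT IR alone, of that labelled cKO IR alone and of both, and for consensus regions with a Ctrl peak. 5′ UTR summits made up 6.99% of the peaks of the WT IR label alone and 1.32% of those of the cKO IR label alone.

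By label, 272 IR-only peaks were consensus peaks of the WT IR group alone, 302 of the cKO IR group alone and 65 of both. The division by label was not sharp, because 118 of the 272 and 166 of the 302 also had a peak in at least 1 library of the other group. Single IR libraries held peaks at 401 to 438 of the regions. The libraries themselves had 13470 to 17442 peaks after irradiation and 15503 to 17608 in Ctrl, and the library with the most IR peaks, labelled WT IR replicate 2, also held the most IR-only peaks. Of 23 peaks in 5′ UTRs, 19 were consensus peaks of the WT IR label alone (6.99% of its 272) and 4 of the cKO IR label alone (1.32% of its 302), but 6 of the 19 and 3 of the 4 had a peak in at least 1 library of the other label. Among the other consensus peaks the 5′ UTR shares were 4.44% under the WT IR label alone, 2.88% under the cKO IR label alone and 3.87% under both. These shares are a description, since the labels were assigned by the calls.

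The highest IR-only peak in a coding gene lay in the first exon of Ythdf2 (ENSMUSG00000040025.17), the targeted m6A reader, at chr4:132211939-132212133 on the minus strand, with its summit in the 5′ UTR. Its fold was 16.5, 13.5 and 14.2 in the 3 libraries labelled WT IR, and the libraries labelled cKO IR had no peak there. A second Ythdf2 peak, in an intron, was also found under the WT IR label alone, with folds of 4.73, 7.51 and 4.64. The nearest Ctrl peak on the strand was 4976 bases from the second and 6123 bases from the first. IP counts over the whole gene did not rise with the new peaks: they were 217 to 228 CPM in WT Ctrl, 166 to 184 CPM in the group labelled WT IR, 191 to 208 CPM in cKO Ctrl and 202 to 211 CPM in the group labelled cKO IR. The groups labelled WT IR and WT Ctrl did not overlap, with the irradiated one lower. Both peaks were called in the irradiated IP libraries low in Lyz2, a level that went with cKO in the Inputs. The group labelled WT IR was below cKO Ctrl as well. The part of the label in these peaks and counts was not tested.

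Other peaks of high fold lay in genes of varied function. The peak in Spen, a transcriptional corepressor, had folds of 11.1, 8.51 and 10.2 in the libraries labelled cKO IR and was absent from those labelled WT IR. Kcnn3, a calcium-activated potassium channel, carried its peak in all 6 IR libraries (5.57 to 7.83), with the summit 29 bases before the end of the stop codon. The nearest Ctrl peak to it lay 67313 bases away. Lrmp, a membrane protein of the endoplasmic reticulum, also had its peak in all 6 (7.16 to 9.86), yet here a Ctrl peak ended 174 bases away. The peak in Alox5, the 5-lipoxygenase that starts leukotriene synthesis, had its summit in the first coding exon and was called in the 3 libraries labelled WT IR (7.24 to 7.73) and in 1 labelled cKO IR (7.09). Zranb3, a DNA-annealing helicase that acts at stalled replication forks, had folds of 7.44 to 8.61 under the WT IR label, whereas under the cKO IR label it reached 5.30 and 3.72 in 2 libraries and was not called in the third. Across these regions, presence in a library of the other label was the rule rather than the exception, with Ythdf2 and Spen apart.

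**Figure D2:**
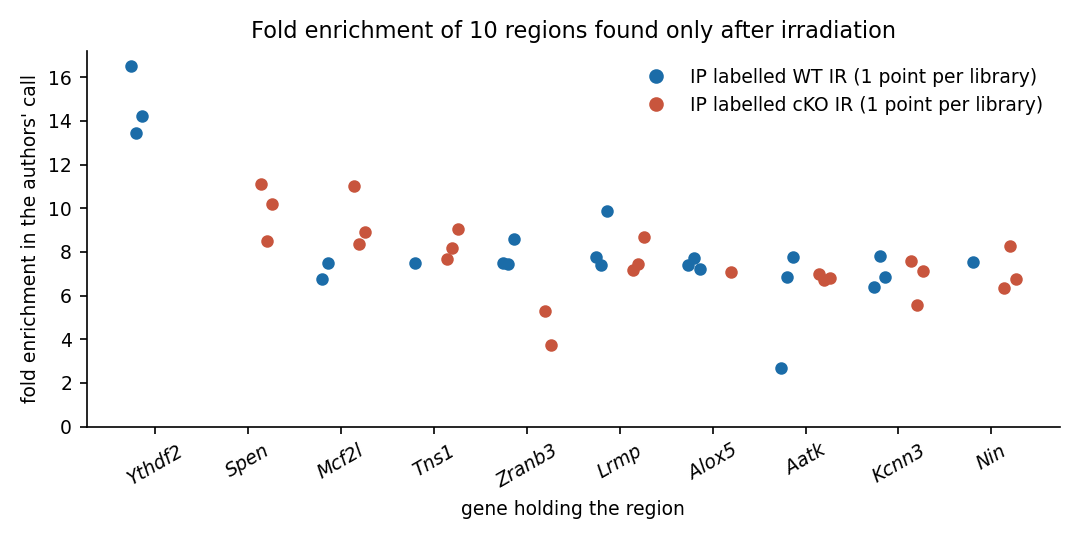
Fold enrichment in the authors' calls (vertical axis, linear from 0) of the 10 regions, 1 for each gene, with 1 point for each IR IP library in which the region had a peak, coloured by label. Ythdf2 (13.5 to 16.5) had peaks under the WT IR label alone and Spen (8.51 to 11.1) under the cKO IR label alone, and the other 8 genes had a peak in at least 1 library of both.

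The highest folds of all, however, lay opposite Lyz2. Of the 32 peaks with no gene on their strand, 19 faced a gene on the other strand and 13 faced none. Lyz2 faced 4, on the plus strand of chromosome 10 between 117277387 and 117282261, with lowest folds of 41.3, 32.5, 8.91 and 7.87, each called in the 3 libraries labelled cKO IR and in none labelled WT IR. Lyz1, its neighbour and paralogue, faced 1 (5.65, the cKO IR label alone), and Itgax, the gene of CD11c, faced 2 (8.03 and 6.16). Lyz2 also held 3 IR-only peaks on its own strand under the cKO IR label alone, the highest at 5.54 to 7.27. All 8 peaks over Lyz2 and Lyz1 thus sat in the IP libraries with at least 20975 CPM of Lyz2 whose label goes with Inputs at 403 to 414 CPM. The part of the label in these calls was not tested.

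The 607 IR-only peaks on a gene's own strand belonged to 403 genes, and 43 of these held 3 or more. For 481 of the 607 (79.2%), the gene had a Ctrl peak elsewhere, and 182 of the 639 lay within 1000 bases of a Ctrl peak of the same strand, 1 of them within 100 bases. Most IR-only peaks were therefore additional calls in transcripts that had peaks before irradiation, and 93 of the 403 genes had no Ctrl peak at all. The genes were long and well expressed: 401 passed the count filter in the Inputs (at least 10 counts in at least 3 libraries), with a median exon length of 6626 bases and a median Input level of 9.36 CPM per kilobase, against 4272 bases and 5.96 CPM per kilobase for the 4071 tested genes with other consensus peaks.

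Fibronectin stood first by number. Fn1 (ENSMUSG00000026193.15), a matrix glycoprotein made by macrophages and fibroblasts, held 15 IR-only peaks, 13 with their summits in coding sequence, 1 in the 5′ UTR and 1 in the 3′ UTR. Of these, 14 were consensus peaks under the cKO IR label alone and 1 under both, with lowest folds between 1.51 and 3.86. Fn1 Input levels were 788 to 816 CPM in WT Ctrl, 808 to 882 CPM in WT IR, 920 to 933 CPM in cKO Ctrl and 499 to 504 CPM in cKO IR, so that the cKO IR Inputs stood below all others. The IP levels were 576 to 587 CPM in WT Ctrl, 928 to 964 CPM in the group labelled WT IR, 377 to 388 CPM in cKO Ctrl and 1145 to 1194 CPM in the group labelled cKO IR. By label, the cKO IR group was thus the highest in the IP and the lowest in the Input. By Lyz2 level, the irradiated libraries high in Lyz2 had the higher Fn1 level in both kinds. Which grouping is right was not tested.

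Ahnak, which encodes a very large scaffold protein, held 8 peaks, all low (1.32 to 1.84), all in coding sequence and all under the cKO IR label alone. Hip1, an endocytic adaptor, held 7 with higher folds (2.70 to 5.98), of which 6 lay in introns. Mmp2, a secreted gelatinase, held 5 (1.52 to 3.03), and none of these was called in a library labelled cKO IR. The nearest Ctrl peak on the strand was 1160098 bases from any Mmp2 peak. Mmp2 counts in the IP libraries were 19.4 to 22.0 CPM in WT Ctrl, 102 to 104 CPM in the group labelled WT IR, 42.0 to 45.2 CPM in cKO Ctrl and 45.7 to 47.5 CPM in the group labelled cKO IR. The Inputs followed another order by label, from 27.7 to 29.6 CPM in WT Ctrl over 48.2 to 49.6 CPM in WT IR and 68.6 to 70.7 CPM in cKO Ctrl to 91.1 to 94.3 CPM in cKO IR. By Lyz2 level, the irradiated libraries low in Lyz2 had the higher Mmp2 level in both kinds. The part of the label was not tested. Mmp2 was higher in cKO than in WT among the unirradiated libraries of both kinds, by 1.27 on the log2 scale in the Inputs (SE 0.04, edgeR adjusted p 1.3e-14) and by 1.06 in the IP (SE 0.05, edgeR adjusted p 1.5e-19). Other genes with 3 or more peaks included Kmt2e and Setd1b, with 4 each, and Bptf, Tet3, Bicra and Notch1 (a receptor of cell fate decisions), with 3 each.

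Ltf (lactoferrin, a protein of neutrophil granules, ENSMUSG00000032496.7) had 6 IR-only peaks, all consensus peaks under the cKO IR label alone, with lowest folds of 4.18 to 10.2 and no Ctrl peak closer than 124042 bases. Its Input levels were 760 to 767 CPM in WT Ctrl, 43.0 to 45.7 CPM in WT IR, 252 to 259 CPM in cKO Ctrl and 14.4 to 15.9 CPM in cKO IR. The irradiated Inputs were lower in both genotypes, by −4.12 on the log2 scale in WT (SE 0.04) and −4.10 in cKO (SE 0.04). In the IP libraries the levels were 77.9 to 84.1 CPM in WT Ctrl, 62.7 to 73.4 CPM in the group labelled WT IR, 82.3 to 87.7 CPM in cKO Ctrl and 50.2 to 52.3 CPM in the group labelled cKO IR. Between treatments the Ltf Inputs therefore moved far more than the IP libraries did. Ngp, also a granule protein of neutrophils, had 2 peaks of its own and 1 opposite it, and its Input levels were 692 to 711 CPM in WT Ctrl and 35.7 to 38.3 CPM in WT IR, against 82.9 to 85.8 and 46.0 to 46.3 CPM in the IP. Padi4, the enzyme that citrullinates histones in neutrophils, had 4 peaks, Chil3 (a chitinase-like protein of neutrophils and macrophages) had 3, and Stfa2 and BC100530, both of the stefin A cluster, had 1 each.

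Padi4 IP counts were higher in the irradiated libraries (34.9 to 35.4 and 28.7 to 31.0 CPM, against 22.6 to 25.6 CPM in all Ctrl libraries) while its Input counts were lower (7.61 to 10.5 and 6.51 to 6.76 CPM in IR, against 37.1 to 39.3 and 16.7 to 18.1 CPM in Ctrl). Over 10 granulocyte genes listed after these values were seen (Ltf, Ngp, Camp, Lcn2, Mmp8, Mmp9, Retnlg, Padi4, Stfa2 and BC100530), of which 5 held an IR-only peak and 5 (Camp, Lcn2, Mmp8, Mmp9 and Retnlg) held none, the summed level was 2599 to 2651 CPM (per total gene counts) in the WT Ctrl Inputs, 623 to 630 in WT IR, 1219 to 1229 in cKO Ctrl and 605 to 625 in cKO IR. In the IP libraries it was 472 to 521 in Ctrl and 476 to 604 in IR. For these 10 genes, the Inputs of the WT Ctrl group thus held more than 4 times the summed level of the irradiated ones, and the IP libraries showed no such fall. Myeloid markers outside this list had unequal ranges over all Inputs. Csf3r ranged from 73.1 to 132 CPM, S100a8 from 62.2 to 436 CPM and S100a9 from 143 to 1049 CPM. In bulk samples fewer cells of a type and less RNA per cell cannot be told apart, and the part of cell composition in these peaks was not tested.

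**Figure D3:**
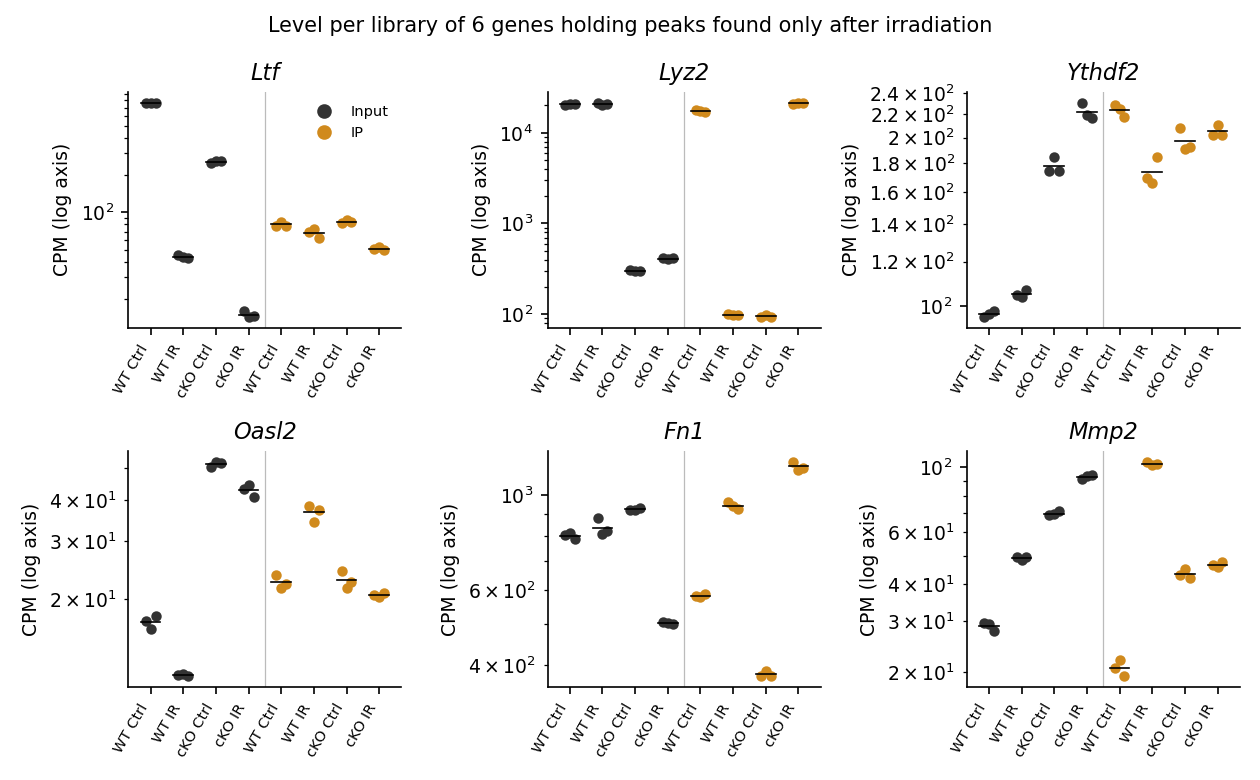
Level in each library (vertical axis, CPM on a log axis with its own range in each panel) of 6 genes holding IR-only peaks, Inputs in black and IP libraries in orange, 3 points for each group with a line at the mean. Ltf Inputs were lower after irradiation in both genotypes while its IP libraries stayed between 50.2 and 87.7 CPM, and Lyz2 in the IR IP libraries was opposite to the Inputs of the same label.

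Over all genes with IR-only peaks, Input and IP counts differed between IR and Ctrl in opposite directions. A gene was called at an edgeR adjusted p under 0.05 among all genes tested. In the IP libraries, with irradiation averaged over the genotypes, 351 of 401 tested genes were called higher and 25 lower, beside 31.2% higher and 29.9% lower among all 16038 genes, and the median difference was 0.35 on the log2 scale. This is the contrast by which the peaks were chosen, and the count describes them without supporting anything. In the Inputs 41 were called higher (10.2%) and 281 lower (70.1%), beside 22.5% and 24.1% of all 16090 genes. The median difference was −0.20 in the genes with IR-only peaks, −0.05 in the genes with other consensus peaks (19.5% higher, 38.2% lower) and 0.01 over all genes. Among the 92 tested genes without any Ctrl peak, 12 were called higher and 59 lower. The Inputs were not read when the peaks were chosen, but whether they served as controls of the calls is not given in the sources used here, so that their direction too is a description.

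**Figure D4:**
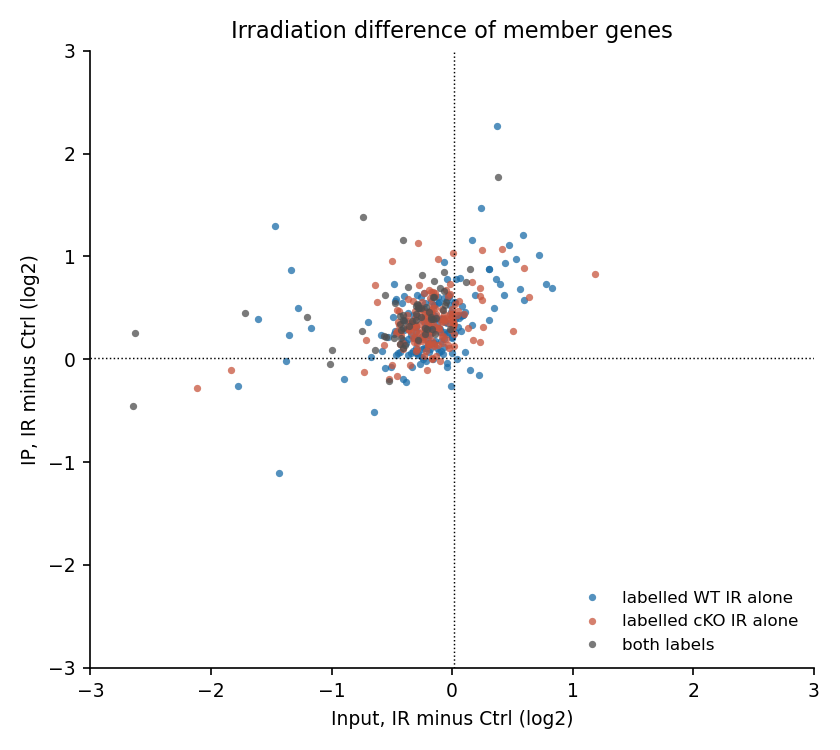
Difference between IR and Ctrl averaged over the genotypes (log2) of the genes with IR-only peaks, in the Inputs (horizontal axis) and in the IP libraries (vertical axis), 1 point for each gene, coloured by the label of its peaks, with dotted lines at the median of all genes. Most points lie to the upper left, at a median of −0.20 in the Inputs and 0.35 in the IP, and 4 genes with Input differences below −3 (Ltf, Ngp, Stfa2 and BC100530) lie outside the axes.

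The Input difference was not alike in both genotypes. In WT, 79 genes were called higher and 162 lower after irradiation (all genes, 14.7% and 17%), with a median of −0.07. In cKO, 29 were called higher and 302 lower (all genes, 21.8% and 23.8%), with a median of −0.34. The difference between the genotypes' irradiation effects was itself called in 260 genes, higher in cKO in 37 (9.23%) and lower in cKO in 223 (55.6%), beside 15% and 15.2% of all genes. Tns1, a focal adhesion protein, shows the pattern: its Inputs were at 56.6 to 60.1 CPM in WT Ctrl and 58.0 to 62.3 CPM in WT IR, and at 40.4 to 44.4 CPM in cKO Ctrl and 25.5 to 27.9 CPM in cKO IR. The IR and Ctrl Inputs overlapped in WT and were apart in cKO. Spen behaved likewise, with a difference of −0.09 in WT (SE 0.04) and −0.65 in cKO (SE 0.04). Both examples held consensus peaks of the cKO IR label alone. The 163 tested genes of that label alone had the irradiation effect higher in cKO in 1.23% and lower in 75.5% (median −0.41). The 173 of the WT IR label alone had it higher in 17.9% and lower in 32.4% (median −0.07). The Inputs may have been controls of the calls, so that these counts are a description and support nothing.

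Between the genotypes, 64 genes were called higher and 254 lower in the irradiated cKO Inputs than in the irradiated WT Inputs (16.0% and 63.3%), beside 23.9% and 23.8% of all genes. Most peaks were consensus calls within 1 genotype's label, and the Inputs may have been controls of those calls, so that these counts too are a description. The median was −0.27, against 0.08 in the genes with other consensus peaks. Before irradiation the genes were nearly balanced, with 81 higher and 97 lower in cKO (20.2% and 24.2%), above the 8.05% and 7.61% of all genes, and the median was −0.03. In the Ctrl IP libraries 150 were higher and 104 lower in cKO (37.4% and 25.9%), beside 16.2% and 17.1% of all genes.

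The same contrasts were counted apart by the label of the peaks. The 163 tested genes with peaks under the cKO IR label alone had Inputs lower in cKO IR than in WT IR in 142 cases (87.1%) and higher in 3 (1.84%, median −0.49). Over all genes, 23.8% were lower and 23.9% higher in these Inputs. In the IP, 51 of the 163 were higher and 49 lower in the group labelled cKO IR (median 0.01), beside 17.7% and 25.7% of all genes. The 173 tested genes with peaks under the WT IR label alone had Inputs higher in cKO IR in 58 cases (33.5%) and lower in 59 (34.1%, median 0.01). In the IP, 7 of these (4.05%) were higher and 141 (81.5%) lower in the group labelled cKO IR (median −0.28). The division was made on the IR IP libraries, so that these values describe the 2 sets and test nothing. In the Ctrl Inputs, whose part in the absence of Ctrl peaks is not known, the WT IR set had 63 genes higher (36.4%) and 24 lower (13.9%) in cKO. The cKO IR set had 10 higher (6.13%) and 49 lower (30.1%), beside 8.05% and 7.61% of all genes.

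**Figure D5:**
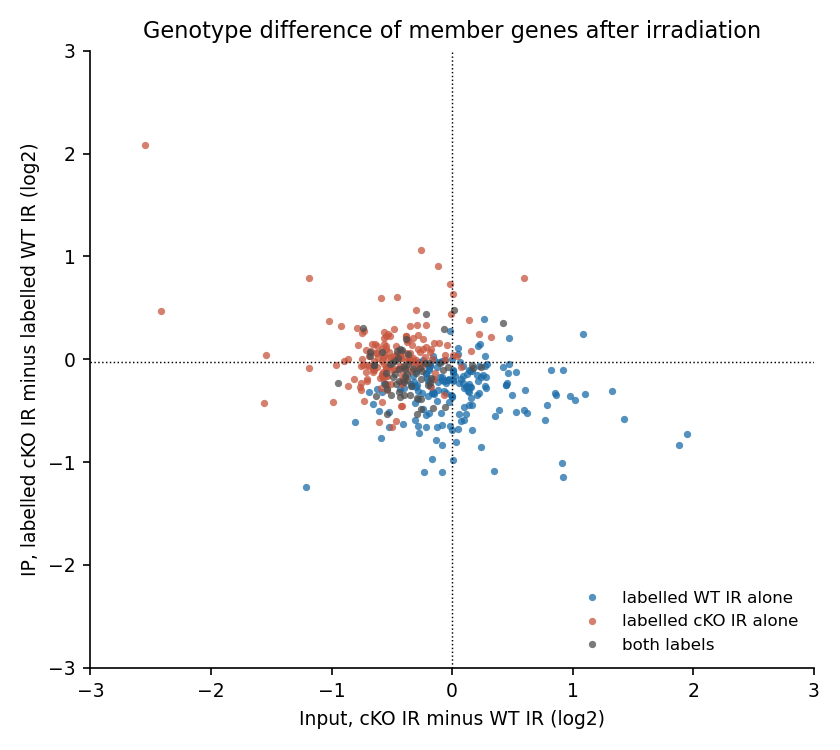
Difference between cKO and WT after irradiation (log2) of the genes with IR-only peaks, in the Inputs (horizontal axis) and between the IP groups as labelled (vertical axis), 1 point for each gene, coloured by the label of its peaks, with dotted lines at the median of all genes. Genes of the cKO IR label alone lie to the left (median −0.49 in the Inputs) and those of the WT IR label alone lie low (median −0.28 in the IP), and Lyz2 lies outside the axes.

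Of 30 interferon-stimulated genes, 5 held IR-only peaks and 12 held a consensus peak of any kind after irradiation. Over all genes tested in the Inputs, 401 of 16090 (2.49%) held an IR-only peak, or 8.97% of the 4472 with any such consensus peak. Ifit2, Oasl2, Oas1a, Ddx58 (RIG-I) and Dhx58 (LGP2), which sense or restrict viral RNA, held 7 IR-only peaks, each called in the 3 libraries labelled WT IR and in none labelled cKO IR, with lowest folds of 2.40 to 5.15. Of the 30 listed genes, 29 were called higher in cKO than in WT in the unirradiated Inputs (median 0.91 on the log2 scale) and 30 in the irradiated ones (median 1.38). None was called lower. Over all genes, 8.05% were called higher and 7.61% lower in the unirradiated Inputs, and 23.9% and 23.8% in the irradiated ones. Oasl2, an oligoadenylate synthetase-like protein, was at 16.1 to 17.7 CPM in WT Ctrl, 11.6 to 11.8 CPM in WT IR, 50.4 to 52.3 CPM in cKO Ctrl and 41.0 to 44.5 CPM in cKO IR. The cKO Inputs lay above all WT Inputs, by 1.60 in Ctrl (SE 0.05, edgeR adjusted p 1.3e-14). In the IP libraries Oasl2 was at 21.6 to 23.7 CPM in WT Ctrl and 21.6 to 24.2 CPM in cKO Ctrl, which overlapped (0.02, SE 0.06, edgeR adjusted p 0.85), at 34.4 to 38.5 CPM in the group labelled WT IR and at 20.2 to 20.8 CPM in that labelled cKO IR. The genotype difference of the Ctrl Inputs was thus not seen for Oasl2 in the Ctrl IP libraries. Ifit2 was higher in cKO in the Ctrl Inputs (1.18, SE 0.07, edgeR adjusted p 3.4e-10) and lower in cKO in the Ctrl IP (−0.37, SE 0.06, edgeR adjusted p 1.4e-05).

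Each of the other lists held 0 to 2 genes with an IR-only peak, beside 2.49% of all tested genes. A consensus peak of any kind after irradiation was held by 11 of the p53 targets, 20 of the DNA replication genes and 20 of the mitosis genes. It was held by 10 of the chemokines and cytokines, 12 of the m6A genes, 18 of the myeloid transcription factors and 1 of the markers. Among all tested genes with such a peak, 8.97% held an IR-only peak. In the averaged Input contrast of IR with Ctrl, 22.5% of all genes were called higher and 24.1% lower, beside which the called counts below stand. Of 24 p53 targets, 22 were called higher in it and 1 lower. Perp alone of these targets had an IR-only peak, with folds of 2.81 to 5.06 under the WT IR label. Its summit lay in coding sequence, 78 bases before the end of the stop codon. Among 24 DNA replication genes, 23 called lower in the Inputs after irradiation and none higher, Mcm4 (a subunit of the replicative helicase) had 1. None of 20 mitosis genes had one, and all 20 were called lower in the Inputs. Of 28 chemokines and cytokines only Ccl3 had one, of low fold (1.40 to 1.48) and with its summit 8 bases before the end of the stop codon. Zeb2, a listed myeloid transcription factor, had 1 under the WT IR label, and of 20 genes that write, erase or read m6A only Ythdf2 had any. Of 30 markers of other cell types only Pecam1, an adhesion molecule of endothelium and some leukocytes, had one (4.83 to 5.22), and its Input level was low in every group, with means of 0.47 to 2.34 CPM.

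None of 20 negative regulators of NF-κB held an IR-only peak, among them Socs3, Metrnl, Smpdl3b and Tnfaip8l2, which the study named. Of these, the study took Metrnl and Smpdl3b further, as m6A-marked targets of YTHDF2. Of the 20, 12 held a consensus peak of any kind after irradiation. In the WT Inputs 3 of the 20 were called higher and 7 lower after irradiation (all genes, 14.7% and 17%). In the cKO Inputs 3 were called higher and 5 lower (all genes, 21.8% and 23.8%). In irradiated cKO against irradiated WT Inputs, 12 were called higher and 3 lower (all genes, 23.9% and 23.8%). Averaged over the genotypes, the Input differences of Socs3, Metrnl, Smpdl3b and Tnfaip8l2 with irradiation were −0.13 (SE 0.04), −0.25 (SE 0.03), −0.30 (SE 0.04) and −0.13 (SE 0.04) on the log2 scale, in that order. The study compared irradiated with unirradiated WT, and irradiated cKO with irradiated WT, so that this average is another measure. Among genes with IR-only peaks, the Inputs that were highest above Ctrl after irradiation were those of Tnfsf4 (a costimulatory ligand), Pdpn (podoplanin), Perp, Clmp and Gprc5c. Tnfsf4 Inputs were at 24.5 to 25.1 CPM in WT Ctrl, 52.2 to 54.3 CPM in WT IR, 32.0 to 35.7 CPM in cKO Ctrl and 80.1 to 81.7 CPM in cKO IR, and the irradiated libraries were above the unirradiated ones in both genotypes. The Tnfsf4 IP counts were at 75.8 to 81.4 CPM under the cKO IR label, where its single peak was called, and at 44.1 to 46.9 CPM under the WT IR label. They were at 27.2 to 28.2 CPM in cKO Ctrl and at 40.7 to 41.5 CPM in WT Ctrl, below both irradiated groups. The irradiated groups are named by label only, and their IP contrast with Ctrl is the one by which the peaks were chosen. Genes with IR-only peaks thus included some whose Inputs were higher after irradiation, 41 in all, beside the 281 that were lower.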

How the data were processed

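Input RNA and m6A-immunoprecipitated RNA of CD11b+ myeloid cells were sequenced in 24 libraries, in 8 groups of 3, grouped and numbered by the labels. According to the submitters' processing notes and the study's methods, trimming by the authors used Trimmomatic 0.39, strand-aware alignment to mm10 used HISAT with the GENCODE vM19 annotation, gene counting used HTSeq, and peak calling used MACS2, separately for each library and strand (SAMtools and bedtools 2.26.0 are also named). The deposited gene values are raw counts, neither normalized nor pooled. The deposited peak lists hold per peak a fold enrichment at the summit (a ratio over a control), a −log10 p and a −log10 q, and a score that is a whole-number multiple of −log10 q. The control of each call is not given in the sources used here. The authors kept peaks at a −log10 q of at least 2, so that a missing peak is a value under that threshold and not an absence of m6A.

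From these files, IR-only peaks were built by merging overlapping same-strand peaks, and were annotated with GENCODE vM21, whose identifiers were matched to the count tables without version. All 403 genes with peaks were found there. A summit was placed in the transcript segment under it, and windows were read from the genome. Gene counts were tested with edgeR 4.0.16 in R 4.3.3 (quasi-likelihood F test, TMM scaling, a minimum of 10 counts in 3 libraries for each gene), with the 12 Inputs in one fit and the 12 IP libraries in another, no covariates, and Benjamini-Hochberg adjustment over all genes tested (16090 and 16038). The study used DESeq2 with the same filter, and DESeq2 1.42.0 was run as an alternative. HTSeq summary lines stayed out of library sizes (no-feature reads, 3.95 to 6.55% of the Inputs and 2.86 to 3.60% of the IP). CPM are TMM-scaled within each kind of library, so that Input and IP levels are on separate scales, while marker and granulocyte sums are CPM of unscaled totals. SEs of log2 differences were derived from the F statistic. At this depth (65.2M to 86.4M gene counts per library, M, mega) the biological coefficient of variation between libraries was 5.57% in the Inputs and 4.30% in the IP. The script was tested on simulated data with known changes.

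The peaks and the gene lists were chosen with earlier results of these data known. Genes were named by rule. The rule took the 10 exonic peaks of highest fold, 1 for each gene, and the genes with 3 or more peaks. It also took listed genes holding a peak, the 5 genes with the largest Input rise and the 5 with the largest fall. Ythdf2, Lyz2 and genes that the study named were added. A few results of this rule are not reported here. The 10 granulocyte genes and the genes named opposite a peak were chosen after their values were seen. Close paralogues such as Lyz2 and Lyz1, Stfa2 and BC100530, and Oas1a carry the uncertainty of multi-mapped reads. Alternatives covered scaling, filter, tool, block, single libraries left out, and the definition of a peak found only after irradiation.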

Additional observations from a re-analysis of the deposited data

Results flagged for a closer look

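The irradiation effect in the Inputs differed between the genotypes, by the interaction term of the edgeR fit, in 37 genes with IR-only peaks that were higher in cKO and in 223 that were lower in cKO, of 401 tested. The difference was tested over all genes (15% and 15.2% called). The peaks were chosen by the contrast of IR with Ctrl in the IP libraries. Most were consensus calls within the label of a single genotype, and the Inputs may have been controls of those calls. The counts are therefore a description. These counts kept within 1.5 times of themselves under RLE scaling, a filter on any count, DESeq2, a replicate block and each Input left out. These settings do not bear on how the peaks were chosen.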

How the results depend on the processing

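The number of IR-only peaks, 639, depended on its definition. It was 1777 where 2 of 3 IR libraries sufficed, 2332 where only Ctrl consensus peaks excluded a region, 1162 where a Ctrl peak had to cover at least 50% of it, and 1202 to 1406 without one replicate number in every IP group, since each of these asks less of a region. It was 430 to 732 under the other definitions tried (intersection of the libraries, a distance of 100 bases, either strand, a −log10 q of at least 3, a fold of at least 2). The GGACT share moved with the window, by construction, to 5.16% with 25 bases to each side and 19.9% with 100. Restricting the averaged Input contrast to genes without a Ctrl peak left 12 higher and 59 lower, of fewer genes. Of 148 recomputed counts of called genes, the other 146 stayed within 1.5 times of the main count. With a replicate block the averaged Input contrast gave 39 genes higher and 280 lower, and the Ctrl genotype contrasts 160 in the Inputs and 252 in the IP. Deviations of same-numbered libraries from their group means correlated at −0.04 to 0.02 in the Inputs and −0.02 to 0.03 in the IP, and 1 of 12 Inputs and 6 of 12 IP libraries correlated best with a library of their own number, so that the numbers are read as names. Of 1152 recomputed Input values of 72 named genes, 1145 kept their direction and side of the threshold. Akap13 (4 settings) and Tnfaip8l2 (1) lost their call. Gfra1, near 0.2 CPM in the Inputs and not called, turned to −0.01 without WT Ctrl replicate 3 and to −0.13 without WT IR replicate 3, in a range of −0.13 to 0.44 over all single libraries left out.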
